A study of Mus musculus with 24 samples.

Results

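Matrix metalloproteases (MMPs), ADAMTS proteases with their ADAMTS-like relatives (ADAMTSL), and tissue inhibitors of metalloproteases (TIMPs) were described in muscle stem cells (MuSCs) and their descendants from dystrophin-deficient *mdx* mice and wild-type (WT) mice. The genes were taken by symbol alone, with no filter on measured values, although the set was chosen with earlier results of these data known. This gave 51 of the 53392 genes quantified, made up of 23 *Mmp*, 19 *Adamts*, 5 *Adamtsl* and 4 *Timp* genes. *Mmp1a* is annotated as a polymorphic pseudogene and the others as protein-coding genes.

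MMPs and ADAMTS enzymes are zinc proteases that are secreted or held at the cell surface, and both are made as inactive precursors. MMPs cut collagens, laminins and elastin, whereas ADAMTS enzymes cut proteoglycans such as versican, trim procollagens or act around fibrillin microfibrils. ADAMTSL proteins resemble ADAMTS enzymes but lack the protease domain, and TIMPs block the active site of the enzymes. In skeletal muscle these proteins remodel the basal lamina that covers the MuSC and the fibrotic matrix of injured and dystrophic tissue.

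Bulk RNA-seq was made from 24 libraries in 8 groups of 3, described in the study as biological triplicates. All mice carried the Pax7-nGFP reporter, which labels MuSC nuclei, and *mdx* mice carry a point mutation in *Dmd* on the C57BL/10ScSn background. AMuSCs (activated MuSCs) were sorted 3 days after cardiotoxin (CTX) injury and FiMuSCs (freshly isolated MuSCs) from uninjured muscle, both as GFP+ ITGA7+ cells negative for CD31, CD45, SCA1 and CD11b. Myotubes were cultures after 2 days of differentiation, and myoblasts were the proliferating primary cultures. Each cell state was sampled from *mdx* and from WT mice. RNA was extracted with one kit from sorted cells and with another from cultured cells, so that cell source and kit cannot be told apart. The age of the mice and which animals gave which library are not given in the sources used here, and p-values describe the spread between these libraries.

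Library totals ranged from 37280196 to 64429222 estimated reads. The point mutation need not lower the RNA, but *Dmd* was at 139 to 149.5 CPM (counts scaled to a common library size) in *mdx* FiMuSCs against 230 to 262 CPM in WT FiMuSCs, and at 38.1 to 47.1 CPM in *mdx* myotubes against 205 to 230.1 CPM in WT myotubes. It was not lower in *mdx* AMuSCs (16.4 to 34.4 CPM, against 15.4 to 20.8 CPM in WT AMuSCs), and *mdx* myoblasts (2.39 to 29.1 CPM) overlapped WT myoblasts (4.79 to 13.8 CPM). *Pax7* was at 331 to 1968 CPM in all sorted libraries. Among the summed markers of other cell types, several libraries stood apart, and those that touch results below are given. The *mdx* AMuSC replicate 1 had 3618 CPM over 7 macrophage markers, against 121 and 248 CPM in the other *mdx* AMuSCs and 8.04 to 24.1 CPM in WT AMuSCs. The *mdx* FiMuSC replicate 1 had 612 CPM over 5 endothelial markers, against 245 and 257 CPM in the other *mdx* FiMuSCs. The *mdx* myoblast replicate 2 had 154 CPM of macrophage markers, against 7.61 and 9.17 CPM in its group. The *mdx* myotube replicate 1 had 2479 CPM over 5 mural cell markers, against 1035 and 1096 CPM in its group. The WT FiMuSC replicate 2 had 295.5 CPM of macrophage and 288 CPM of neutrophil markers, against 85.4 and 59.7 CPM and 97.1 and 41.3 CPM in its group. For markers of the muscle fibre, WT AMuSC replicate 2 (348 CPM, against 64.4 and 42.8) and WT myoblast replicate 2 (1096 CPM, against 173 and 200.2) were high.

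In the genome, 10 of the 23 *Mmp* genes lie in one cluster on chromosome 9 (chr9:7272514-7699585, GRCm38), in the order *Mmp13*, *Mmp12*, *Mmp1b*, *Mmp3*, *Mmp1a*, *Mmp10*, *Mmp8*, *Mmp27*, *Mmp20* and *Mmp7*. *Adamts15* and *Adamts8* are neighbours on the same chromosome (chr9:30899155-30963838), and *Adamts1* and *Adamts5* are neighbours on chromosome 16 (chr16:85793827-85901828). *Mmp12* and *Mmp1b* overlap on opposite strands, and since the strand setting of the quantification is not given, reads of this pair could not be told apart in the overlap. *Mmp1b* held 2 counts over all 24 libraries.

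Promoter sequence is given for 4 cluster genes that are called in a comparison below and hold an AP-1 site, together with 2 *Adamtsl* genes that rose in myotubes and hold an E-box. The windows are the 250 bases upstream of the RefSeq start on GRCm38.p6, and 36 of the 51 members had an entry. Capitals mark TGANTCA, the site bound by AP-1 (Fos and Jun dimers), in the 4 *Mmp* windows and CAGCTG, an E-box of the kind that MyoD and myogenin bind, in the *Adamtsl* windows. Positions are chr9:7445572-7445821 for *Mmp3*, chr9:7502092-7502341 for *Mmp10*, chr9:7347124-7347373 for *Mmp12*, chr9:7272264-7272513 for *Mmp13* and chr2:27079129-27079378 for *Adamtsl2*, all on the plus strand, and chr10:80348449-80348698 on the minus strand for *Adamtsl5*.
Mmp3: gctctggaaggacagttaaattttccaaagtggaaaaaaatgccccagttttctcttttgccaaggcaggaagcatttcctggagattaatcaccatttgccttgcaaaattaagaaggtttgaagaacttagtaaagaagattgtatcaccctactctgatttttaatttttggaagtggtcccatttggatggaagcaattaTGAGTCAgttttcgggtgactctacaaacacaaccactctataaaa
Mmp10: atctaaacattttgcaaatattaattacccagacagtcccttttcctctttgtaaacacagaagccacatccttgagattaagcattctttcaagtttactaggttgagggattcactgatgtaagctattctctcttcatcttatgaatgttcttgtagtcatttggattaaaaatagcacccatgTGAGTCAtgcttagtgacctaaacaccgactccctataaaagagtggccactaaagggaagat
Mmp12: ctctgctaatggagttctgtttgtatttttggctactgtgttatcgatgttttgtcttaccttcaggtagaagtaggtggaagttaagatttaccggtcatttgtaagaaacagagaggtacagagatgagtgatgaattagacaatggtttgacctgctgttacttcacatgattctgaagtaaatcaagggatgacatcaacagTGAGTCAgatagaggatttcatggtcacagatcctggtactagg
Mmp13: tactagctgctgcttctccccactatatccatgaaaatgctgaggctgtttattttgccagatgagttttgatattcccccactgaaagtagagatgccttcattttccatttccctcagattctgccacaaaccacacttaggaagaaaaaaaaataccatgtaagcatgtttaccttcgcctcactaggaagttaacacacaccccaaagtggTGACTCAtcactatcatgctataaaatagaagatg
Adamtsl2: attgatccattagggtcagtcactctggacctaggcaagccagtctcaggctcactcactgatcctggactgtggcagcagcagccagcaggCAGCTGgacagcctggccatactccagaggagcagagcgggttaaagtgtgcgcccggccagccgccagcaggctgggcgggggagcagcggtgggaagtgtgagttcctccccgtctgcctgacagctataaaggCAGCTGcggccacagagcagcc
Adamtsl5: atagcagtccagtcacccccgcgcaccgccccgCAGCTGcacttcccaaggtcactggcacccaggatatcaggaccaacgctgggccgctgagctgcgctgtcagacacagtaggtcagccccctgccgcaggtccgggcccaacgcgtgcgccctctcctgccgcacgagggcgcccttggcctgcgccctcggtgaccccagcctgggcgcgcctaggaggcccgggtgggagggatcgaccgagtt
TGANTCA, searched on both strands and allowing any overlap with other motifs, occurred in 6.75% of 32851 mouse windows of this length, in 8 of 10 cluster genes and in 0 of the 26 other members matched. In *Mmp3*, *Mmp10*, *Mmp12* and *Mmp13* it began 46, 63, 44 and 35 bases before the start. *Mmp8*, a cluster gene also called below, has no TGANTCA in its window and is not printed. CAGCTG occurred in 13.0% of all windows, in 0 of 10 cluster genes and in 9 of the 26 others, and in *Adamtsl2* it began 158 and 22 bases before the start. A match describes the letters of the window and does not show binding.

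TPM, a level corrected for transcript length and library size, was used to rank members against each other. Over all 24 libraries the highest mean level was 214 TPM for *Timp2*, which inhibits MMPs and also takes part in activating the *Mmp2* precursor, and 115 TPM for *Timp1*, the inducible inhibitor. Next came *Mmp2* (gelatinase A) at 47.9 TPM, *Mmp14* (a membrane-type MMP that activates the *Mmp2* precursor) at 46.8 TPM and *Adamts10* (linked to fibrillin microfibrils) at 33.5 TPM. The first 10 were completed by *Adamts1* (a versicanase) at 24.5 TPM, *Adamtsl4* (fibrillin-binding) at 22.7 TPM, *Mmp11* (stromelysin-3) at 14.4 TPM, *Adamtsl5* at 13.4 TPM and *Timp3* (the matrix-bound inhibitor) at 12.7 TPM. In single groups the first member was *Timp2*, except in both myoblast groups, where *Timp1* had 294.5 ± 38.6 TPM in *mdx* and 296.1 ± 21.5 TPM in WT (SD, n = 3 each), and in WT FiMuSCs, where *Mmp2* (206.9 ± 81.3 TPM) and *Timp2* (204.5 ± 8.90 TPM) did not differ beyond their spread. These levels include reads that were assigned to transcripts without a protein-coding label. Such transcripts held most of the TPM of some genes, since protein-coding transcripts made up 0.589% for *Adamts10*, 15.9% for *Adamtsl5*, 16.0% for *Adamts2*, 18.2% for *Adamtsl4*, 22.3% for *Adamtsl2*, 37.6% for *Mmp11* and 38.2% for *Adamts7*, against 61.4% for *Mmp14*, 89.5% for *Mmp2* and all of it for *Timp1* and *Timp2*. On reads of protein-coding transcripts alone, an alternative chosen after seeing the data, the *mdx* over WT log2 fold change of *Adamts2* was 3.49 in AMuSCs (edgeR adjusted p = 0.000523) and 2.46 in FiMuSCs (0.0061), whereas no call of *Adamts10* described below stood, each being lost or not testable at that depth.

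The summed TPM of the TIMPs over that of the MMPs gives the balance of inhibitor to enzyme transcripts in a library. In *mdx* AMuSCs the ratio was 1.298, 2.06 and 2.12, against 4.18, 4.66 and 5.20 in WT AMuSCs. In *mdx* FiMuSCs it was 1.65, 1.75 and 1.77, against 1.49, 0.816 and 0.702 in WT FiMuSCs. The genotypes did not overlap in either sorted state, and *mdx* was below WT after injury but above WT before it. In myotubes the ratio was 5.12 ± 0.178 in *mdx* and 6.53 ± 0.613 in WT, and in myoblasts it was 3.67 ± 0.770 in *mdx* and 3.56 ± 0.564 in WT (SD, n = 3 each), where the myoblast groups overlapped. After injury both sums were higher in *mdx*, with MMP sums of 230.0, 161 and 128 TPM in *mdx* AMuSCs against 40.6, 38.8 and 36.6 TPM in WT AMuSCs, and TIMP sums of 298.5, 331 and 270.1 TPM in *mdx* AMuSCs against 169.9, 181 and 190.4 TPM in WT AMuSCs. *Mmp2* and *Mmp14* together held from 28.8% (WT myotubes) to 90.6% (WT FiMuSCs) of the MMP sum. Ratios of protein-coding TPM (means of 2.80 in *mdx* and 7.55 in WT AMuSCs, and of 2.26 in *mdx* and 1.19 in WT FiMuSCs) and of CPM sums kept these directions in the sorted cells. The lowest *mdx* AMuSC ratio was that of replicate 1, the library with 3618 CPM of macrophage markers, where *Mmp12* had 56.0 TPM. In WT FiMuSCs *Mmp2* held 75.6% of the MMP sum. Fibro-adipogenic markers summed to 2002, 3535 and 4162 CPM there, against 3001, 2919 and 2612 CPM in *mdx* FiMuSCs. The part of other cell types in the ratio was not tested. The ratio summarises the members and was given no test.

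**Figure D1:**
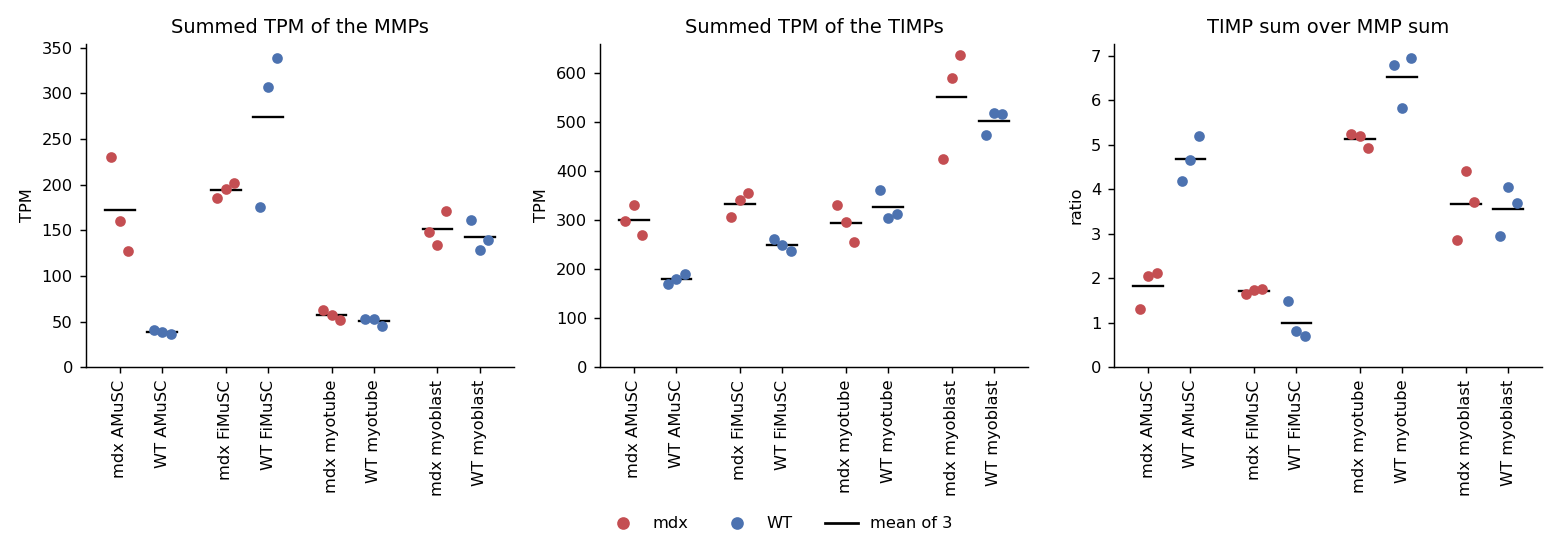
Summed TPM of the MMPs (left), of the TIMPs (middle) and their ratio (right) in each library, with *mdx* in red, WT in blue and a black line at the mean of 3. The ratio averaged 1.83 in *mdx* AMuSCs and 4.68 in WT AMuSCs, and 1.72 in *mdx* FiMuSCs and 1.00 in WT FiMuSCs.

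Of the 51 members, 42 passed the filter on low counts in at least 1 comparison and 27 in all 10. The 9 that passed in none were *Adamts13*, *Adamts18*, *Adamts19*, *Mmp1a*, *Mmp1b*, *Mmp7*, *Mmp20*, *Mmp21* and *Mmp24*, with 0 to 127 counts over the 24 libraries. *Mmp7* (matrilysin) reached 2.43 CPM in *mdx* FiMuSC replicate 1, the library with the high endothelial markers, and had counts in 3 libraries in all.

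In FiMuSCs, the comparison of genotypes in uninjured muscle, *mdx* differed from WT in both directions. The study describes MuSCs of uninjured *mdx* muscle as pathogenically activated and those of WT as normally quiescent. *Adamts2*, *Mmp12*, *Adamts7*, *Mmp3*, *Adamts12*, *Mmp14*, *Adamts4*, *Mmp17* and *Adamts3* were higher in *mdx*, and *Adamts8*, *Adamts10* and *Mmp2* were lower. The lower calls depend on the fit, since none passed in a fit of all 24 libraries (6 higher and 0 lower, with edgeR adjusted p of 0.0943 for *Adamts8*, 0.0573 for *Adamts10* and 0.261 for *Mmp2*). The main counts are 9 higher and 3 lower of the 38 members tested (edgeR quasi-likelihood test, Benjamini-Hochberg adjusted p under 0.05 over 19406 genes), where 5.82% of all genes tested were higher and 3.85% lower. By family, 4 of 14 *Mmp* and 5 of 15 *Adamts* genes were higher, 1 *Mmp* and 2 *Adamts* genes were lower, and no *Adamtsl* or *Timp* gene passed the test. The median log2 fold change was 0.37 over the members tested and 0.00 over all genes. In bulk RNA, fewer cells of a type and less RNA per cell cannot be told apart, here and in every comparison that follows.

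*Adamts2*, the main procollagen N-proteinase, had 19.6, 33.2 and 37.5 CPM in *mdx* FiMuSCs against 6.18, 3.98 and 6.23 CPM in WT FiMuSCs, a log2 fold change of 2.47 ± 0.29 (SE; edgeR adjusted p = 0.0059). *Adamts3*, a second enzyme of this kind, had 1.49, 2.02 and 2.19 CPM in *mdx* FiMuSCs against 0.866, 0.540 and 0.886 CPM in WT FiMuSCs (log2 fold change 1.32 ± 0.31, edgeR adjusted p = 0.0461). Both genes were higher in every *mdx* library than in any WT library. *Adamts14*, the remaining N-proteinase, had 39.3, 65.8 and 69.1 CPM in *mdx* FiMuSCs against 27.9, 39.5 and 58.4 CPM in WT FiMuSCs, with overlapping groups (log2 fold change 0.47 ± 0.32, edgeR adjusted p = 0.409). *Adamts7* and *Adamts12*, which cleave cartilage oligomeric matrix protein, changed by 0.92 ± 0.13 (edgeR adjusted p = 0.0106) and 0.94 ± 0.20 (edgeR adjusted p = 0.0369).

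*Mmp12*, the macrophage elastase, had 15.5, 11.97 and 18.2 CPM in *mdx* FiMuSCs against 3.04, 3.36 and 1.75 CPM in WT FiMuSCs, a log2 fold change of 2.49 ± 0.29 (SE; edgeR adjusted p = 0.00525). Beside it, the 7 macrophage markers summed to 338, 564 and 1047 CPM in *mdx* FiMuSCs against 85.4, 295.5 and 59.7 CPM in WT FiMuSCs, with none at 0, and their part in the *Mmp12* difference was not tested. *Mmp12* and the marker sum did not overlap between genotypes. *Mmp3* (stromelysin-1) rested on 23, 28 and 48 counts in *mdx* FiMuSCs against 3, 0 and 0 counts in WT FiMuSCs, a ratio of 29.9 with a 95% counting interval of 9.93 to 147 (edgeR adjusted p = 0.0271). *Mmp17*, a membrane-anchored MMP, was higher by 1.34 ± 0.30 (edgeR adjusted p = 0.0402).

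*Mmp2* and *Mmp14*, a protease and its activator, moved in opposite directions. *Mmp2* had 185, 232.5 and 218 CPM in *mdx* FiMuSCs against 292, 551 and 622 CPM in WT FiMuSCs, a log2 fold change of -1.20 ± 0.28 (SE; edgeR adjusted p = 0.0445). *Mmp14* had 105, 111 and 114 CPM in *mdx* FiMuSCs against 73.3, 74.3 and 90.03 CPM in WT FiMuSCs, a log2 fold change of 0.48 ± 0.11 (edgeR adjusted p = 0.0373). The groups did not overlap for either gene. *Mmp2* held 47.0% of the summed MMP TPM in *mdx* FiMuSCs and 75.6% in WT FiMuSCs. The 6 markers of fibro-adipogenic cells, which also express *Mmp2*, summed to 3001, 2919 and 2612 CPM in *mdx* FiMuSCs and to 2002, 3535 and 4162 CPM in WT FiMuSCs, where the WT libraries stand in the same order as for *Mmp2*. The marker sums overlapped between genotypes. The median log2 fold change of these markers was 1.19, with 2 of 6 called higher in *mdx* and 0 lower. Their part in the *Mmp2* difference was not tested.

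The proteoglycanases did not move as a group. *Adamts8* had 4.97, 4.78 and 3.05 CPM in *mdx* FiMuSCs against 18.4, 25.0 and 30.2 CPM in WT FiMuSCs, a log2 fold change of -2.52 ± 0.27 (SE; edgeR adjusted p = 0.00491). *Adamts4* had 23.6, 99.7 and 85.4 CPM in *mdx* FiMuSCs against 15.3, 7.20 and 12.7 CPM in WT FiMuSCs (log2 fold change 2.57 ± 0.56, edgeR adjusted p = 0.038). *Adamts8* was low and *Adamts4* high in all 3 *mdx* libraries, although *mdx* replicate 1 was much closer to WT for *Adamts4*. *Adamts10* had 259, 231 and 208 CPM in *mdx* FiMuSCs against 417, 525 and 454 CPM in WT FiMuSCs (log2 fold change -0.99 ± 0.13, edgeR adjusted p = 0.00744), nearly all of it in transcripts without a protein-coding label. *Adamts1*, *Adamts5*, *Adamts9*, *Adamts15* and *Adamts20* did not pass the test.

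Among the TIMPs, *Timp1* had 12.3, 45.1 and 58.1 CPM in *mdx* FiMuSCs against 9.22, 2.12 and 1.44 CPM in WT FiMuSCs, and the log2 fold change of 3.19 ± 0.86 missed the threshold (edgeR adjusted p = 0.0692). Without *mdx* replicate 1 it was 3.61 (edgeR adjusted p = 0.0445). *Timp2* differed by 0.25 ± 0.09 (edgeR adjusted p = 0.125), *Timp3* by -0.10 ± 0.29 (0.869) and *Timp4*, the TIMP of heart and muscle, by 0.04 ± 0.54 (0.974). The groups did not overlap for *Timp1* and *Timp2* and overlapped for *Timp3* and *Timp4*. Across FiMuSCs, only *Adamts2*, *Mmp12*, *Adamts8* and *Adamts10* passed in each of the 6 fits that left out 1 library. The calls numbered 4 without *mdx* replicate 2, 5 without *mdx* replicate 3, 5 without WT replicate 2 and 6 without WT replicate 3, and the largest adjusted p of the 8 calls lost ran from 0.0519 for *Adamts7* to 0.152 for *Adamts3*.

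After injury the difference between genotypes went one way. In AMuSCs, 25 of the 39 members tested were higher in *mdx* and 0 were lower (edgeR, adjusted p under 0.05), where 14.8% of the 19321 genes tested were higher and 8.95% lower. The 25 were 9 of 14 *Mmp*, 11 of 16 *Adamts*, 3 of 5 *Adamtsl* and 2 of 4 *Timp* genes. The median log2 fold change was 1.80 over the members tested and 0.04 over all genes. No member was called lower in this test, and DESeq2 called 28 higher and 1 lower. At an unadjusted p under 0.05 there were 30 of the 39 members, as were 7364 of the 19321 genes tested.

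Gelatinases and the membrane-type activator were among the members called higher. *Mmp2* had 76.7, 71.1 and 44.4 CPM in *mdx* AMuSCs against 9.30, 9.07 and 14.5 CPM in WT AMuSCs, a log2 fold change of 2.52 ± 0.26 (SE; edgeR adjusted p = 0.00182). *Mmp14* had 208, 248 and 140.0 CPM in *mdx* AMuSCs against 50.1, 42.1 and 35.2 CPM in WT AMuSCs (log2 fold change 2.19 ± 0.22, edgeR adjusted p = 0.00149). *Mmp9* (gelatinase B, abundant in neutrophils) had 21.1, 11.3 and 7.53 CPM in *mdx* AMuSCs against 2.20, 1.84 and 2.54 CPM in WT AMuSCs (log2 fold change 2.57 ± 0.39, edgeR adjusted p = 0.0051). In all 3 genes the lowest *mdx* library lay above the highest WT library. *Mmp2* was thus higher in *mdx* AMuSCs and lower in *mdx* FiMuSCs than in WT, and both calls are of the same gene in separate libraries. *Mmp11*, which has little activity on collagens, had 27.4, 29.0 and 21.8 CPM in *mdx* AMuSCs against 6.99, 9.67 and 9.65 CPM in WT AMuSCs (log2 fold change 1.54 ± 0.18, edgeR adjusted p = 0.00222).

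Several MMPs known from myeloid cells were high in 1 *mdx* library. *Mmp8*, the neutrophil collagenase, had 443, 53 and 65 counts in *mdx* AMuSCs against 1, 0 and 3 counts in WT AMuSCs, a ratio of 137 with a 95% counting interval of 53.3 to 505 (edgeR adjusted p = 0.0136). *Mmp12* had 69.5, 13.3 and 16.9 CPM in *mdx* AMuSCs against 1.40, 1.45 and 0.919 CPM in WT AMuSCs (log2 fold change 4.71 ± 0.81, edgeR adjusted p = 0.0141). *Mmp19* had 21.1, 4.15 and 4.31 CPM in *mdx* AMuSCs against 1.08, 1.06 and 1.36 CPM in WT AMuSCs (log2 fold change 3.06 ± 0.72, edgeR adjusted p = 0.026). In each case *mdx* replicate 1 was far above the other *mdx* libraries, and all 3 *mdx* libraries were above WT. The 7 macrophage markers summed to 3618, 121 and 248 CPM in *mdx* AMuSCs against 8.04, 8.13 and 24.1 CPM in WT AMuSCs, and the 6 neutrophil markers to 202, 12.8 and 28.1 CPM in *mdx* AMuSCs against 5.24, 4.22 and 6.19 CPM in WT AMuSCs. Without *mdx* replicate 1 the log2 fold changes were 5.25 for *Mmp8* (edgeR adjusted p = 0.0114), 3.56 for *Mmp12* (0.0014), 1.82 for *Mmp19* (0.0096) and 2.05 for *Mmp9* (0.00408). The part of these cell types in the remaining differences was not tested.

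*Mmp23* and *Mmp28* (epilysin) were higher by 1.68 ± 0.33 (edgeR adjusted p = 0.0115) and 2.51 ± 0.52 (0.0136). *Mmp13*, the main rodent interstitial collagenase, had 6.76, 0.550 and 1.27 CPM in *mdx* AMuSCs against 0, 0.164 and 0.476 CPM in WT AMuSCs, and its log2 fold change of 3.73 ± 1.51 did not pass (edgeR adjusted p = 0.128). *Mmp15*, *Mmp16*, *Mmp17* and *Mmp25* did not pass either.

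Procollagen N-proteinases, proteoglycanases and other ADAMTS enzymes were among those higher in *mdx* AMuSCs. Of the N-proteinases, *Adamts2* had 85.0, 95.6 and 65.2 CPM in *mdx* AMuSCs against 6.85, 8.93 and 6.53 CPM in WT AMuSCs, a log2 fold change of 3.43 ± 0.19 (SE; edgeR adjusted p = 0.000461), while *Adamts3* and *Adamts14* differed by -0.13 ± 0.29 (0.801) and -0.08 ± 0.14 (0.718). *Col1a1*, which encodes a procollagen chain that *Adamts2* trims, had 504, 463 and 262 CPM in *mdx* AMuSCs against 18.4, 17.2 and 15.3 CPM in WT AMuSCs. *Col1a1* is also one of the fibro-adipogenic markers summed below. Of the proteoglycanases, *Adamts15* had 104, 82.9 and 82.6 CPM in *mdx* AMuSCs against 19.4, 19.8 and 15.6 CPM in WT AMuSCs (log2 fold change 2.27 ± 0.16, edgeR adjusted p = 0.000776). *Adamts5* had 116, 85.2 and 96.4 CPM in *mdx* AMuSCs against 29.9, 31.3 and 20.7 CPM in WT AMuSCs (log2 fold change 1.84 ± 0.20, edgeR adjusted p = 0.00189). For these 3 genes the *mdx* libraries lay close together and clear of WT. *Adamts1* (0.95 ± 0.16, edgeR adjusted p = 0.00708), *Adamts9* (0.72 ± 0.17, 0.0201) and *Adamts4* (0.60 ± 0.14, 0.0214) differed by less, and *Adamts8* missed the threshold (1.00 ± 0.31, 0.0501).

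Of the other ADAMTS genes, *Adamts12* was higher by 2.22 ± 0.23 (edgeR adjusted p = 0.00167), *Adamts7* by 0.83 ± 0.11 (0.003), *Adamts6* by 1.85 ± 0.23 (0.00279) and *Adamts17*, linked to fibrillin microfibrils in the eye and skeleton, by 3.03 ± 0.48 (0.00568) at 1.06 to 1.39 CPM in *mdx* AMuSCs against 0.0985 to 0.189 CPM in WT AMuSCs. *Adamts16* rested on 15, 59 and 16 counts in *mdx* AMuSCs against 3, 2 and 0 counts in WT AMuSCs (edgeR adjusted p = 0.0308). *Adamtsl4*, which binds fibrillin-1, had 39.6, 45.4 and 32.8 CPM in *mdx* AMuSCs against 9.99, 10.7 and 8.73 CPM in WT AMuSCs (log2 fold change 1.97 ± 0.15, edgeR adjusted p = 0.000807). *Adamtsl1* was higher by 1.71 ± 0.33 (edgeR adjusted p = 0.013) and *Adamtsl3* by 2.61 ± 0.74 (0.0397). None of these groups overlapped.

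Among the inhibitors, *Timp3* had 115, 123 and 95.2 CPM in *mdx* AMuSCs against 29.6, 41.5 and 22.4 CPM in WT AMuSCs, a log2 fold change of 1.80 ± 0.22 (SE; edgeR adjusted p = 0.00271). *Timp2* had 548, 694 and 478 CPM in *mdx* AMuSCs against 279, 332 and 327 CPM in WT AMuSCs (log2 fold change 0.84 ± 0.16, edgeR adjusted p = 0.00997). Both were higher in all 3 *mdx* libraries. *Timp1* had 43.1, 89.7 and 46.9 CPM in *mdx* AMuSCs against 46.7, 51.8 and 67.0 CPM in WT AMuSCs, with overlapping groups (log2 fold change 0.08 ± 0.28, edgeR adjusted p = 0.872), and *Timp4* was under 1 CPM in all 6 libraries (1.91 ± 0.67, 0.0741).

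The 6 fibro-adipogenic markers, which mark stromal cells that make many of these enzymes, summed to 2667, 2857 and 1859 CPM in *mdx* AMuSCs against 648, 602 and 540.1 CPM in WT AMuSCs, and the 5 mural markers to 319, 545 and 298 CPM in *mdx* AMuSCs against 119.9, 140.4 and 105 CPM in WT AMuSCs. Their part in the differences was not tested. In the 6 fits that left out 1 library, 14 of the 25 calls stood each time, those of *Mmp2*, *Mmp9*, *Mmp11*, *Mmp14*, *Timp3*, *Adamts1*, *Adamts2*, *Adamts5*, *Adamts6*, *Adamts7*, *Adamts12*, *Adamts15*, *Adamts17* and *Adamtsl4*. The number called was 15 without WT replicate 1, 15 without WT replicate 2, 17 without WT replicate 3 and 24 or 25 without an *mdx* library. Of the 9 members called higher in FiMuSCs, 6 (66.7%) were also called higher in AMuSCs, and they made up 24.0% of the 25 there, where 64.1% of all members tested in AMuSCs were called higher. These were *Adamts2*, *Adamts4*, *Adamts7*, *Adamts12*, *Mmp12* and *Mmp14*.

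**Figure D2:**
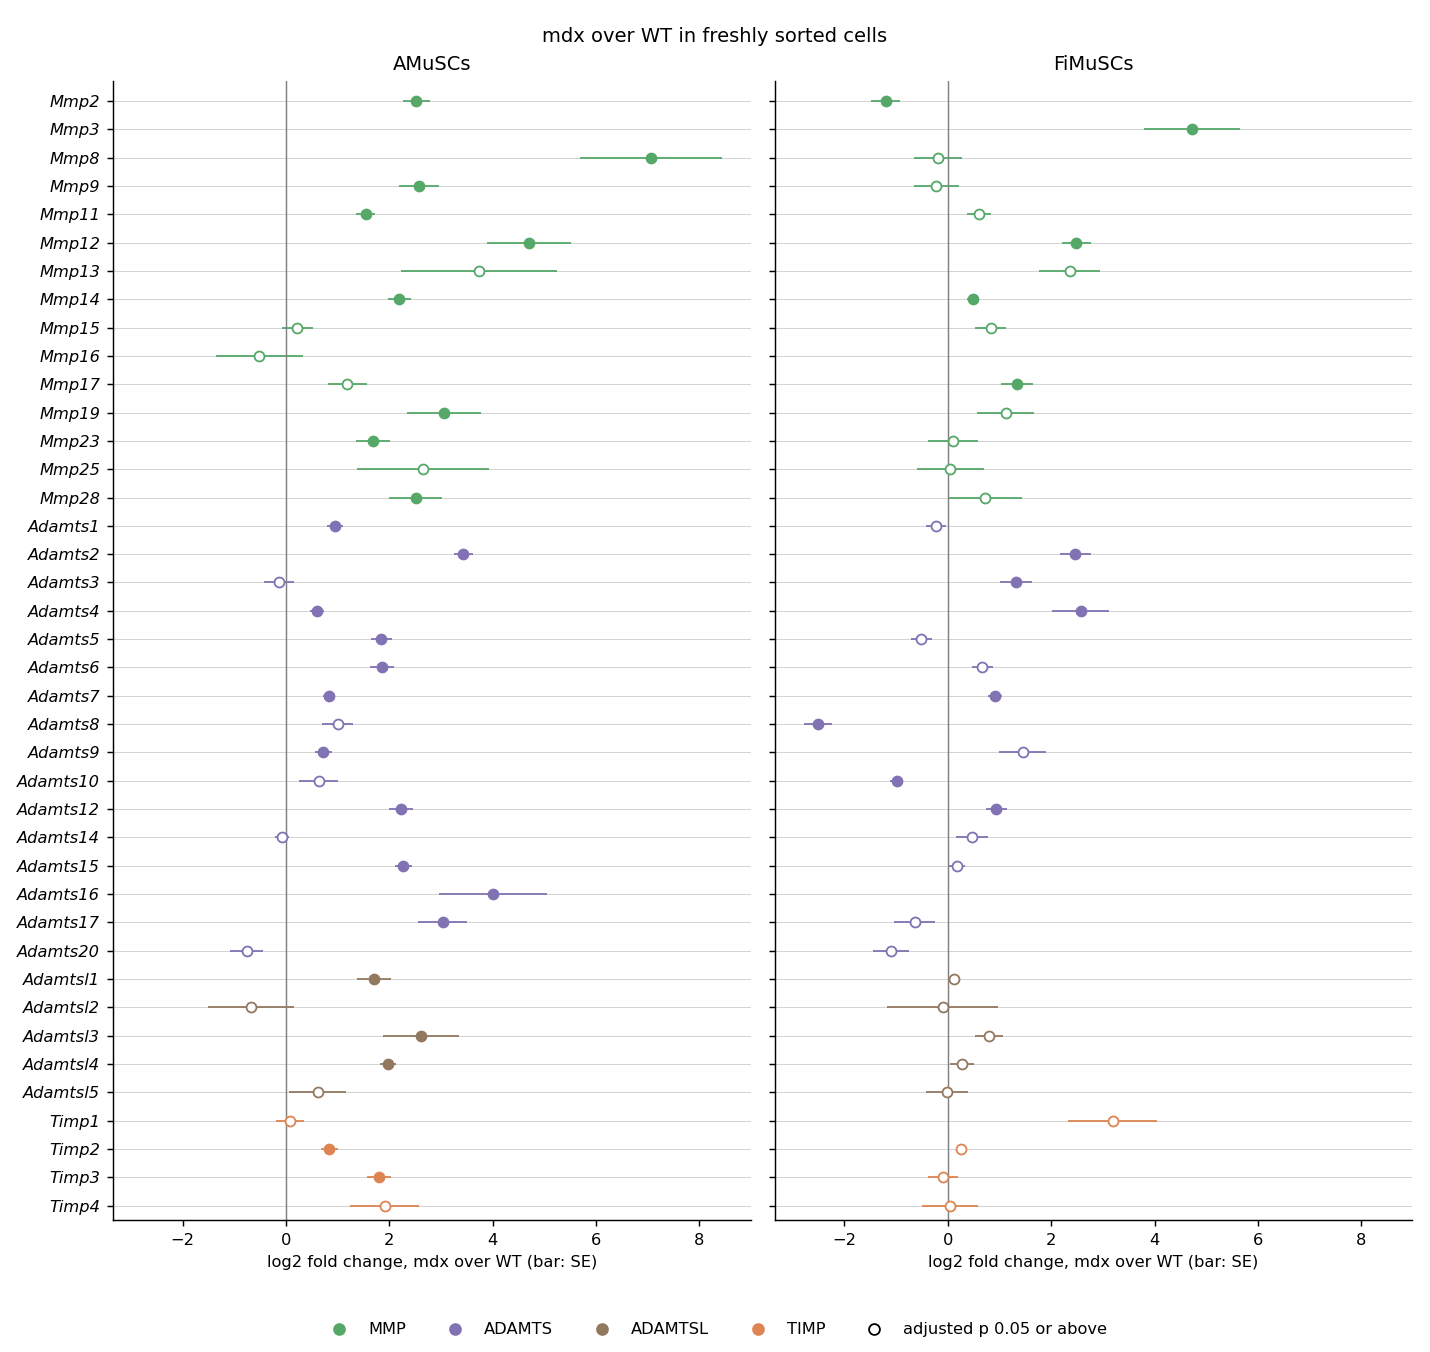
Log2 fold change of *mdx* over WT (x axis, bars are SE) for each member tested in AMuSCs (left) or FiMuSCs (right), coloured by family, with filled points for an adjusted p under 0.05. In AMuSCs 25 filled points lie to the right of 0 and 0 to the left, and in FiMuSCs 9 lie to the right and 3 to the left.

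**Figure D3:**
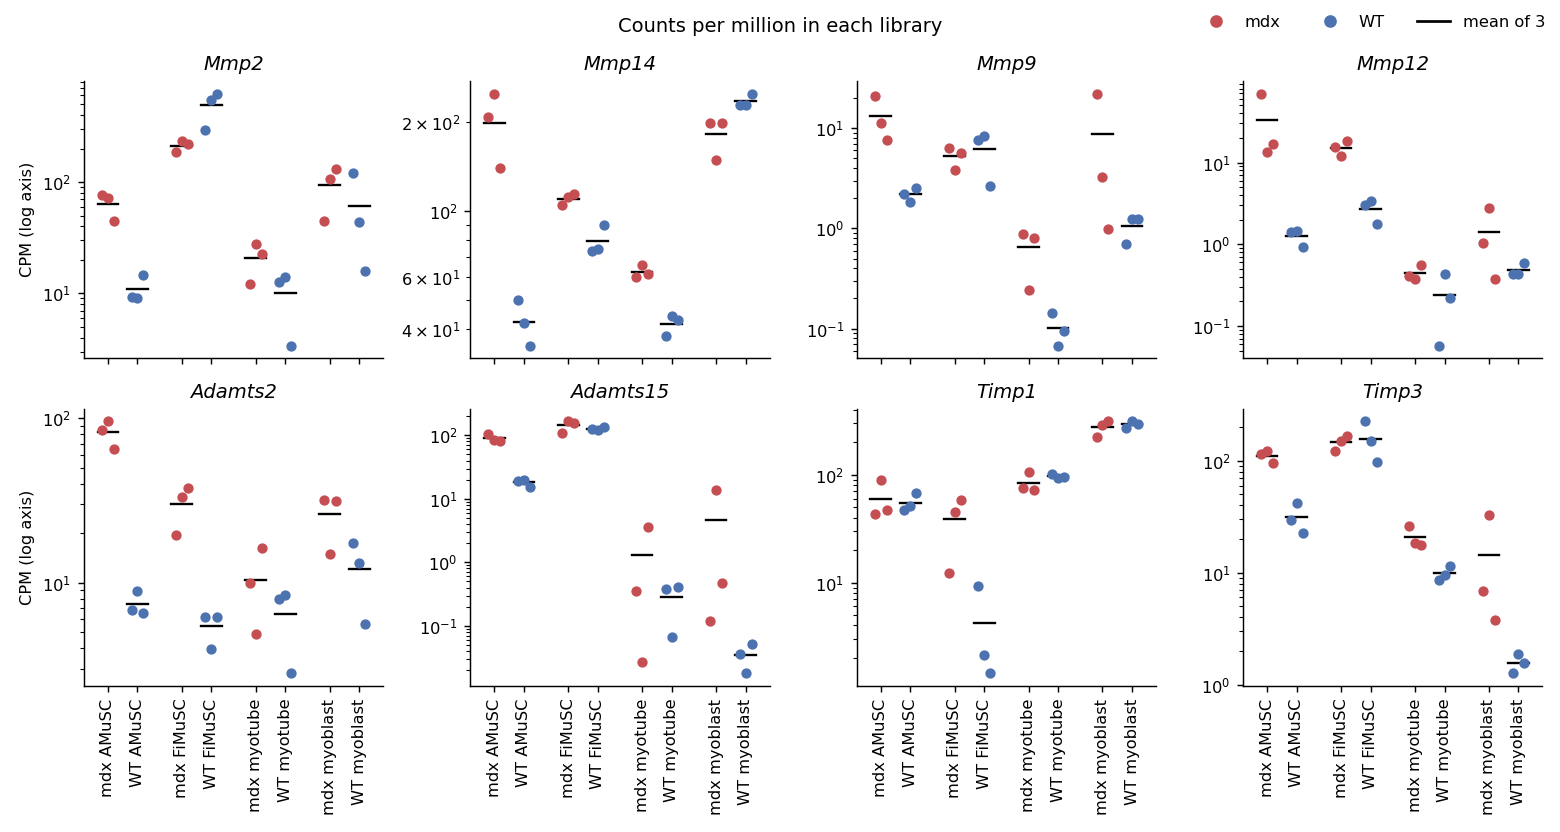
CPM (log axis) of 8 members in each of the 24 libraries, with *mdx* in red, WT in blue and a black line at the mean of 3. *Adamts2* is higher in all *mdx* than in all WT libraries of both sorted states, and *mdx* AMuSC replicate 1 is the highest AMuSC library for *Mmp12* and *Mmp9*.

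The response to injury was read by comparing AMuSCs with FiMuSCs within each genotype. In *mdx*, 8 members were higher and 12 lower in AMuSCs than in FiMuSCs of the 41 tested (edgeR, adjusted p under 0.05), where 15.5% of 19650 genes were higher and 11.7% lower. In WT, 7 were higher and 22 lower of the 36 tested, where 31.6% of 19359 genes were higher and 33.0% lower. The median log2 fold change over the members tested was -0.21 in *mdx* and -1.54 in WT, and over all genes it was -0.02 in *mdx* and -0.08 in WT. Markers of other cell types moved beside the members. In *mdx* AMuSCs, 5 of 5 endothelial (median log2 fold change -4.16), 3 of 3 Schwann, 3 of 6 fibro-adipogenic (-1.08), 0 of 7 macrophage and 0 of 6 neutrophil markers were called lower. In WT AMuSCs, 5 of 5 endothelial (median log2 fold change -5.44), 3 of 3 Schwann (-4.33), 5 of 6 fibro-adipogenic (-2.35), 5 of 5 mural (-1.66), 5 of 7 macrophage (-3.06) and 5 of 6 neutrophil markers (-6.44) were called lower. Their part in the members' changes was not tested.

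Genes that fell in both genotypes included the most abundant FiMuSC enzymes. *Adamts1* had 86.5, 61.7 and 76.1 CPM in *mdx* AMuSCs against 426, 311 and 289 CPM in *mdx* FiMuSCs (log2 fold change -2.20 ± 0.21, edgeR adjusted p = 0.000556), and it fell by 3.30 in WT (6.87e-07). *Adamts20* fell by 2.99 in *mdx* (edgeR adjusted p = 0.000605) and by 3.26 in WT (0.000491), and *Adamts9* by 3.44 in *mdx* (0.00172) and by 2.65 in WT (0.000318). These 3 genes are versicanases, and no library of the AMuSCs reached the FiMuSCs of its genotype. *Timp4* fell by 3.78 in *mdx* (edgeR adjusted p = 0.0057) and by 5.57 in WT (1.77e-05). *Adamts10* fell by 2.16 in *mdx* (edgeR adjusted p = 0.00673) and by 3.71 in WT (3.21e-07). Counted on reads of protein-coding transcripts only, an alternative chosen after seeing the data, the *mdx* value of *Adamts10* turned to 0.88 (edgeR adjusted p = 0.809). In all, 11 members fell in both genotypes, 91.7% of the 12 in *mdx* and 50.0% of the 22 in WT. Over all genes tested, 11.7% fell in *mdx* and 33.0% in WT, and the share falling in both is not given.

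Genes that rose in both genotypes were *Mmp15* (a membrane-type MMP), *Adamts6*, *Adamts7* and *Adamts14*. *Mmp15* had 40.4, 102 and 55.02 CPM in *mdx* AMuSCs against 29.7, 18.6 and 14.1 CPM in *mdx* FiMuSCs (log2 fold change 1.66 ± 0.43, edgeR adjusted p = 0.0311) and rose by 2.31 ± 0.14 in WT (3.25e-06). *Adamts7* rose by 1.53 ± 0.14 in *mdx* (edgeR adjusted p = 0.000515) and by 1.69 ± 0.11 in WT (4.24e-06), the closest pair of values among these genes. In *mdx*, *Mmp23* (2.13 ± 0.37, edgeR adjusted p = 0.00598) and *Adamts2* (1.44 ± 0.26, 0.00728) also rose, and *Mmp3* fell by 2.86 (0.0393). In WT, the rises were led by *Timp1* and *Adamts4*. *Timp1* had 46.7, 51.8 and 67.0 CPM in WT AMuSCs against 9.22, 2.12 and 1.44 CPM in WT FiMuSCs (log2 fold change 3.80 ± 0.71, edgeR adjusted p = 0.00357). *Adamts4* had 96.8, 96.6 and 90.3 CPM in WT AMuSCs against 15.3, 7.20 and 12.7 CPM in WT FiMuSCs (log2 fold change 3.10 ± 0.27, edgeR adjusted p = 8.29e-05), and *Adamts3* rose by 2.09 ± 0.30 (0.000327). *Adamts14* rose by 1.00 in *mdx* (edgeR adjusted p = 0.0182) and by 1.62 ± 0.28 in WT (0.0023), and *Adamts6* by 1.81 ± 0.22 in *mdx* (0.00149) and by 0.70 in WT (0.0168). *Adamts17* fell by 3.76 in WT (edgeR adjusted p = 8.09e-05). Among the TIMPs, *Timp1* had a log2 fold change of 0.64 ± 0.59 in *mdx* (edgeR adjusted p = 0.483), and *Timp2* had one of -0.21 in *mdx* (0.427) and fell by 0.75 in WT (0.000258).

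The difference between the 2 injury responses, *mdx* minus WT, was tested over the 12 sorted libraries. It was above 0 for 15 and below 0 for 2 of the 41 members tested (edgeR, adjusted p under 0.05), where 8.14% of 21086 genes were above and 6.98% below. The median difference was 1.49 on the log2 scale over the members tested and -0.03 over all genes. By family the positive calls were 4 of 16 *Mmp*, 8 of 16 *Adamts*, 2 of 5 *Adamtsl* and 1 of 4 *Timp* genes. This contrast shares its libraries with the genotype comparisons above, so the calls are not independent of them.

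*Mmp2* fell by 1.73 in *mdx*, to 76.7, 71.1 and 44.4 CPM in AMuSCs, and by 5.39 in WT, to 9.30, 9.07 and 14.5 CPM in AMuSCs, a difference of 3.63 ± 0.43 (SE; edgeR adjusted p = 0.000812). *Adamts8* fell by 3.91 in WT (edgeR adjusted p = 2.05e-06) and had a log2 fold change of -0.46 ± 0.32 in *mdx* (0.34), a difference of 3.43 ± 0.37 (0.000533). *Adamts15* fell by 0.69 in *mdx* (edgeR adjusted p = 0.0329) and by 2.72 in WT (6.27e-07), a difference of 2.00 ± 0.22 (0.000585). For these genes the fall was thus smaller in *mdx*, and *Adamts5* gave a difference of 2.26 ± 0.29 (edgeR adjusted p = 0.000989). *Mmp8* fell by 7.47 in WT, where 4 counts remained in AMuSCs against 663 in FiMuSCs, and had a log2 fold change of -0.34 ± 0.91 in *mdx* (edgeR adjusted p of the difference 0.00898). Its counts in WT FiMuSCs were 213, 331 and 119, where the neutrophil markers summed to 97.1, 288 and 41.3 CPM in the same libraries.

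*Mmp14* and *Mmp9* were called in opposite directions in the 2 genotypes. *Mmp14* rose by 0.85 ± 0.21 in *mdx* (edgeR adjusted p = 0.0231) and fell by 0.81 in WT (0.0014), a difference of 1.63 ± 0.27 (0.00313). *Mmp9* rose by 1.32 ± 0.39 in *mdx* (edgeR adjusted p = 0.043) and fell by 1.41 in WT (0.0169), a difference of 2.70 ± 0.63 (0.0155). The rises in *mdx* were the less firm side, and that of *Mmp9* stood in 1 of the 6 fits that left out 1 library. The *mdx* AMuSC replicate 1 carries high macrophage and neutrophil markers, and the *mdx* FiMuSC replicate 1 high endothelial, mural and Schwann markers. Macrophage markers were lowest in that FiMuSC library (338 CPM) and highest in *mdx* FiMuSC replicate 3 (1047 CPM), which stayed in. Without both replicates 1 the rise of *Mmp14* was 0.79 (edgeR adjusted p = 0.097) and that of *Mmp9* was 1.00 (0.0859), a setting chosen after seeing the data. *Timp3* gave a difference of 1.82 ± 0.40 (edgeR adjusted p = 0.0127), since it fell by 2.25 in WT (0.00198) and had a log2 fold change of -0.40 ± 0.16 in *mdx* (0.109).

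The negative differences were those of *Adamts4* (-2.06 ± 0.62, edgeR adjusted p = 0.0495) and *Adamts3* (-1.54 ± 0.44, 0.0374), which rose in WT and were already higher in *mdx* FiMuSCs. *Timp1* behaved alike in value (-3.19 ± 0.98) without passing the test (edgeR adjusted p = 0.0536), and *Timp2* (0.51 ± 0.20, 0.117) and *Timp4* (1.76 ± 0.81, 0.166) did not pass. The other positive calls were *Adamts17*, *Adamtsl4*, *Adamts1*, *Adamtsl1*, *Adamts12*, *Adamts6* and *Adamts10*, with differences from 1.07 (*Adamts1*) to 3.59 (*Adamts17*). In the 12 fits that left out 1 library, 11 of the 17 calls stood each time, those of *Mmp2*, *Mmp8*, *Mmp9*, *Mmp14*, *Timp3*, *Adamts5*, *Adamts8*, *Adamts15*, *Adamts17*, *Adamtsl1* and *Adamtsl4*. The number called was lowest without *mdx* FiMuSC replicate 2, at 11, and the calls of *Adamts1*, *Adamts3*, *Adamts4*, *Adamts6*, *Adamts10* and *Adamts12* were lost in at least 1 fit, with largest adjusted p from 0.0516 (*Adamts1*) to 0.122 (*Adamts4*). For the single genotypes, 11 of 20 calls in *mdx* and 25 of 29 in WT stood each time, with 12 calls in *mdx* without *mdx* FiMuSC replicate 2 and 13 without *mdx* AMuSC replicate 2.

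**Figure D4:**
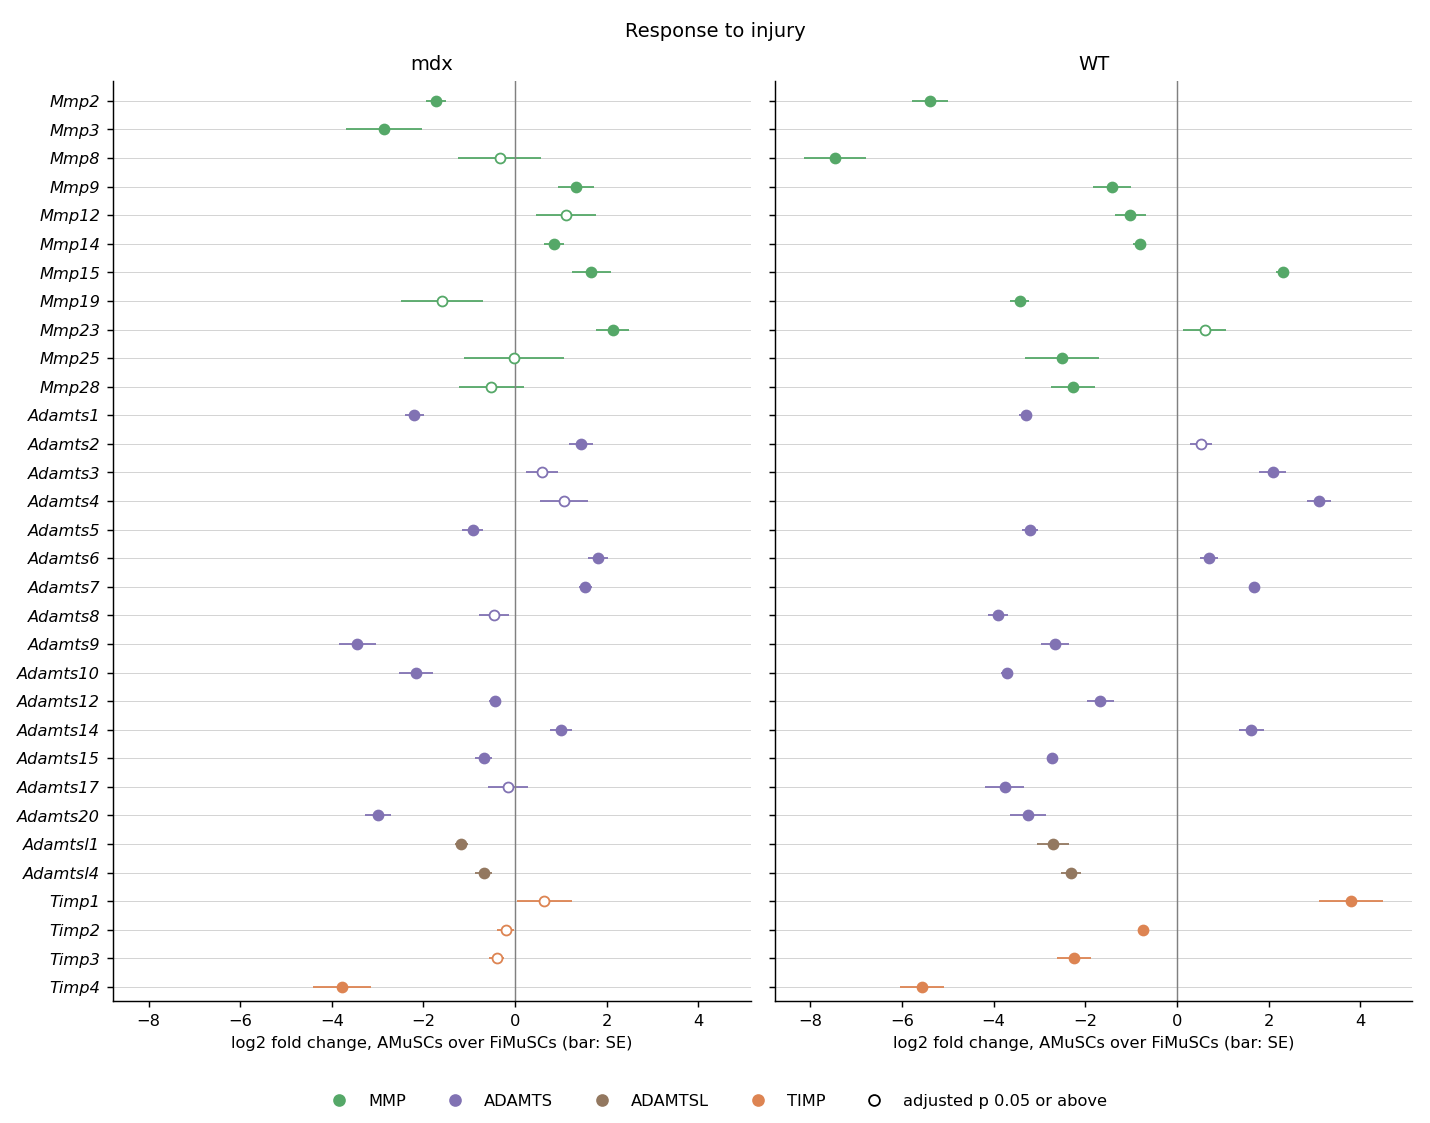
Log2 fold change of AMuSCs over FiMuSCs (x axis, bars are SE) in *mdx* (left) and WT (right) for each member called in either genotype, coloured by family, with filled points for an adjusted p under 0.05. *Mmp3* was not tested in WT, *Mmp2* is at -1.73 in *mdx* and -5.39 in WT, and *Mmp14* lies at 0.85 in *mdx* and -0.81 in WT.

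In culture, away from injured tissue, no member differed between genotypes by the edgeR test. In myoblasts 0 of 34 members tested were higher and 0 lower in *mdx*, where 0.244% of 17226 genes were higher and 0.116% lower (0.36% in either direction). There were 9 members at an unadjusted p under 0.05, as had 2488 of all genes, and DESeq2 called 5 members, all higher in *mdx*, where it called 522 genes higher and 432 lower. In myotubes 0 of 30 were higher and 0 lower, where 0.373% of 16084 genes were higher and 0.218% lower, with 6 members and 2180 of all genes at an unadjusted p under 0.05. DESeq2 called 4 members, all higher in *mdx*, where it called 384 genes higher and 330 lower. The median log2 fold change over the members tested was 0.53 in myoblasts and 0.49 in myotubes, and over all genes it was 0.02 in myoblasts and 0.01 in myotubes.

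*Mmp14* came closest in myotubes, with 60.1, 65.8 and 61.5 CPM in *mdx* against 38.0, 44.4 and 42.9 CPM in WT (log2 fold change 0.58 ± 0.09, edgeR adjusted p = 0.0522). Without *mdx* myotube replicate 1, the library with the high mural markers, *Mmp14* (0.59, edgeR adjusted p = 0.0381) and *Adamtsl1* (1.34, 0.0205) passed. *Timp3* had 26.2, 18.2 and 17.8 CPM in *mdx* myotubes against 8.65, 9.60 and 11.5 CPM in WT myotubes (log2 fold change 1.06 ± 0.21, edgeR adjusted p = 0.0997). The groups did not overlap for either gene. In myoblasts *Timp3* had 6.79, 32.5 and 3.74 CPM in *mdx* against 1.26, 1.89 and 1.55 CPM in WT (log2 fold change 3.21 ± 0.88, edgeR adjusted p = 0.226). The high value is *mdx* myoblast replicate 2, which also had the highest myoblast level of *Adamts1* (57.1 CPM), *Adamts15* (13.5 CPM) and macrophage markers, and without it the log2 fold change of *Timp3* was 1.76 (edgeR adjusted p = 0.182). In myoblasts *Timp1* differed by -0.08 ± 0.13 (edgeR adjusted p = 0.818) and *Timp2* by 0.25 ± 0.22 (0.643), and in myotubes *Timp1* differed by -0.20 ± 0.15 (0.595) and *Timp2* by -0.12 ± 0.11 (0.649).

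More members passed the test with differentiation than with genotype in culture, as did more genes overall. In *mdx*, 5 members were higher and 11 lower in myotubes than in myoblasts of the 34 tested (edgeR, adjusted p under 0.05), where 25.8% of 17206 genes were higher and 26.5% lower. In WT, 11 were higher and 14 lower of the 33 tested, where 34.9% of 16907 genes were higher and 34.5% lower. The median log2 fold change over the members tested was -0.80 in *mdx* and -0.83 in WT, and over all genes it was -0.07 in *mdx* and -0.02 in WT. Called in either direction were 16 of 34 members in *mdx*, where 52.2% of all genes were called, and 25 of 33 in WT, where 69.5% were.

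The members that rose in both genotypes were *Adamtsl1*, *Adamtsl2*, *Adamtsl5*, *Adamts5* and *Mmp15*. *Adamtsl2*, which binds latent TGF-beta binding proteins and fibrillin, had 136, 61.5 and 81.7 CPM in *mdx* myotubes against 0.412, 0.559 and 0.0505 CPM in *mdx* myoblasts, a log2 fold change of 8.04 ± 0.69 (SE; edgeR adjusted p = 0.00026). In WT it had 30.9, 60.1 and 60.0 CPM in myotubes against 0.0721, 1.79 and 0.153 CPM in myoblasts (log2 fold change 6.24 ± 1.05, edgeR adjusted p = 0.00411). *Adamtsl5* had 63.0, 71.9 and 65.3 CPM in *mdx* myotubes against 2.32, 4.60 and 2.63 CPM in *mdx* myoblasts (log2 fold change 4.41 ± 0.29, edgeR adjusted p = 9.68e-05), and rose by 4.52 ± 0.30 in WT (2.31e-05). Both genes were among the 4 highest members by TPM in myotubes of each genotype, but on TPM of protein-coding transcripts they had 9.37 and 7.52 TPM in *mdx* and 4.75 and 6.59 TPM in WT, below *Mmp15* (13.1 TPM in *mdx* and 16.7 TPM in WT) and *Mmp14* (10.8 TPM in *mdx* and 6.76 TPM in WT). Their promoter windows with CAGCTG are printed above. *Adamtsl1*, *Adamts5* and *Mmp15*, which also rose in both genotypes, were not among the 9 members found with CAGCTG. *Adamtsl1* rose by 4.06 ± 1.11 in *mdx* (edgeR adjusted p = 0.0221) and by 6.31 ± 0.42 in WT (6.73e-06). *Adamts5* rose by 2.94 ± 0.93 in *mdx* (edgeR adjusted p = 0.0377) and by 3.59 ± 0.22 in WT (5.88e-06), and *Mmp15* by 1.14 ± 0.17 in *mdx* (0.00176) and by 1.76 ± 0.09 in WT (1.84e-06).

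The cluster genes *Mmp13* and *Mmp10*, both with TGANTCA in the promoter window, were nearly lost in myotubes. *Mmp12* and *Mmp3*, with the same site, were not called in differentiation in either genotype by the main fit. The other members that fell in both genotypes were not among the 8 found with the site. *Mmp13* had 0, 0.136 and 0.0964 CPM in *mdx* myotubes against 3.59, 8.09 and 8.16 CPM in *mdx* myoblasts (log2 fold change -6.31 ± 0.89, edgeR adjusted p = 0.00142). In WT it had 0 counts in all 3 myotube libraries against 682 counts in myoblasts, at least 42.2-fold lower with a floor of 3 counts per library (edgeR adjusted p = 0.00105). *Mmp10* (stromelysin-2) had 0, 2 and 3 counts in *mdx* myotubes against 109, 125 and 76 in *mdx* myoblasts (edgeR adjusted p = 0.00118), and 0, 1 and 0 counts in WT myotubes against 44, 42 and 53 in WT myoblasts (0.000285). The groups were far apart in both genotypes.

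*Mmp14* had 60.1, 65.8 and 61.5 CPM in *mdx* myotubes against 198, 149 and 198 CPM in *mdx* myoblasts (log2 fold change -1.51 ± 0.14, edgeR adjusted p = 0.000263), and it fell by 2.48 in WT (2.31e-07). *Timp1* had 75.2, 106 and 71.9 CPM in *mdx* myotubes against 222, 289 and 313 CPM in *mdx* myoblasts (log2 fold change -1.68 ± 0.20, edgeR adjusted p = 0.000711), and it fell by 1.59 in WT (8.01e-07). An enzyme and an inhibitor thus fell together. *Adamts10* fell by 3.11 in *mdx* (edgeR adjusted p = 0.000948) and by 3.24 in WT (2.81e-06), *Mmp9* by 3.73 in *mdx* (0.0438) and by 3.33 in WT (0.000567), and *Mmp16*, a membrane-type MMP, by 2.39 in *mdx* (0.00361) and by 2.01 in WT (0.00339). *Mmp2* fell by 2.18 in *mdx* (edgeR adjusted p = 0.00939), and in WT its log2 fold change of -2.58 ± 0.97 did not pass (0.0645). *Adamtsl3* fell by 3.45 (edgeR adjusted p = 3.86e-06) and *Mmp17* by 2.73 (0.000798) in WT. In all, 9 members fell in both genotypes, 81.8% of the 11 in *mdx* and 64.3% of the 14 in WT, and none was called in opposite directions. Over all genes tested, 26.5% fell in *mdx* and 34.5% in WT, and the share falling in both is not given.

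*Adamts1*, *Adamts20*, *Timp3*, *Timp2* and *Adamtsl4* rose in WT and did not pass in *mdx*. *Timp3* had 8.65, 9.60 and 11.5 CPM in WT myotubes against 1.26, 1.89 and 1.55 CPM in WT myoblasts (log2 fold change 2.67 ± 0.22, edgeR adjusted p = 1.78e-05), and in *mdx* the log2 fold change was 0.57 ± 0.77 (0.57). *Adamts20* rose by 5.19 ± 0.37 (edgeR adjusted p = 1.2e-05) and *Adamts1* by 2.97 ± 0.17 (2.99e-06) in WT, and in *mdx* their values were 2.13 ± 1.21 (0.189) and 1.02 ± 0.60 (0.201). *Timp2* rose by 0.58 ± 0.08 in WT (edgeR adjusted p = 0.000274) and had 0.24 ± 0.23 in *mdx* (0.43), and *Timp4* was too low to be tested in culture. The *mdx* values depend on *mdx* myoblast replicate 2. Without that library *Timp3* (1.99, edgeR adjusted p = 0.00632), *Adamts20* (4.95, 0.00117) and *Adamts1* (1.98, 0.00433) passed in *mdx*. The difference between the 2 differentiation responses, *mdx* minus WT, was called for 0 members above and 0 below 0 of the 36 tested, where 0.0269% of 18585 genes were above and 0.0323% below (0.0592% in either direction), with 7 members at an unadjusted p under 0.05 and 2 called by DESeq2. Of the calls, 12 of 16 in *mdx* and 23 of 25 in WT stood in each of the 6 fits that left out 1 library.

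**Figure D5:**
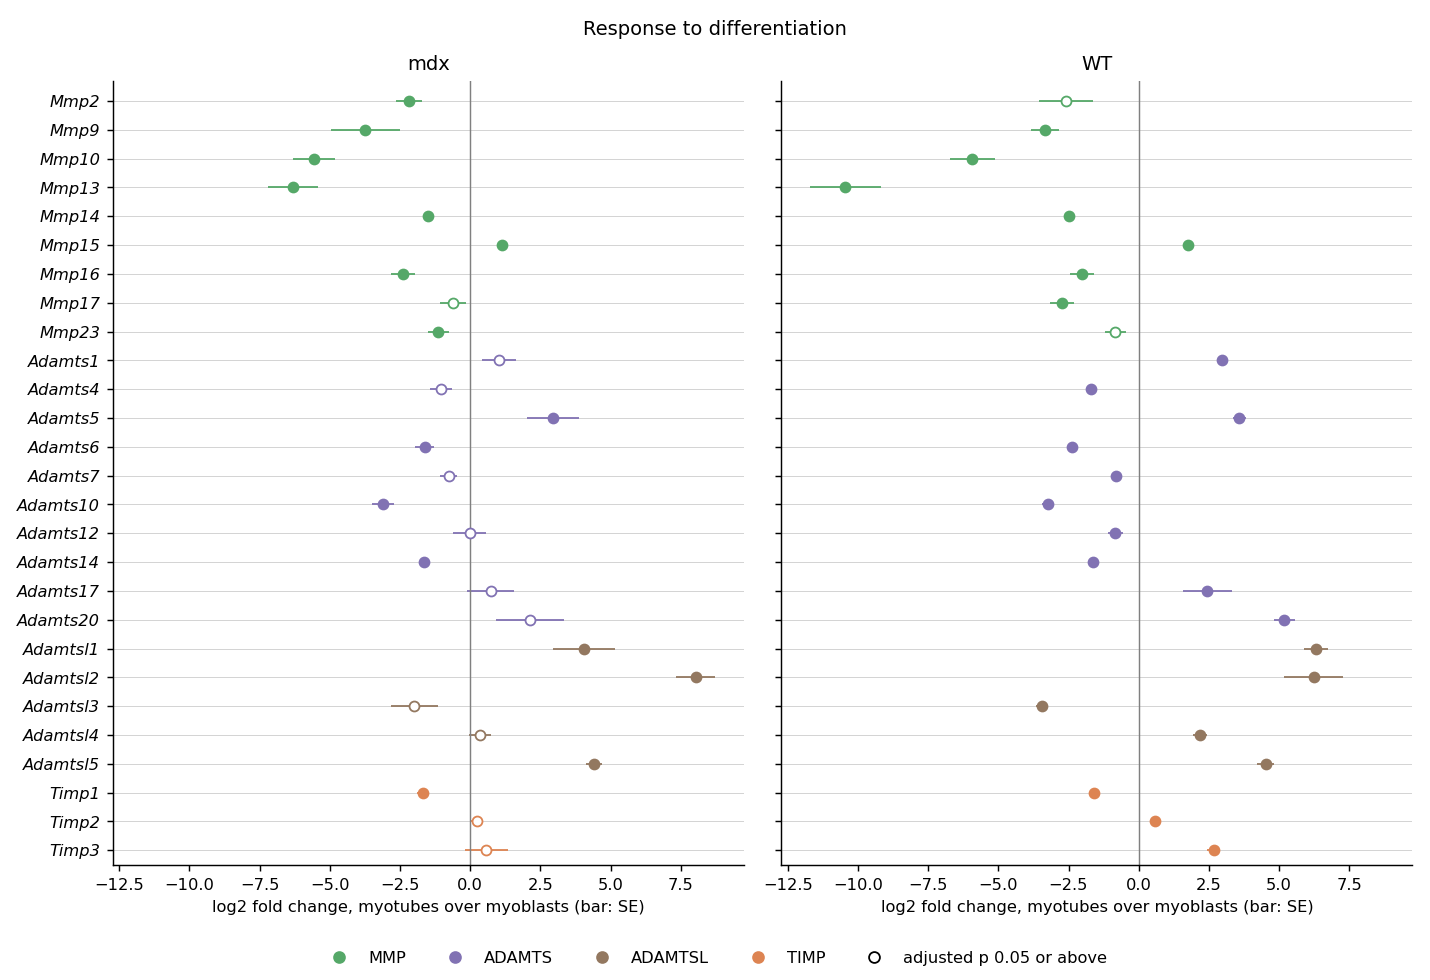
Log2 fold change of myotubes over myoblasts (x axis, bars are SE) in *mdx* (left) and WT (right) for each member called in either genotype, coloured by family, with filled points for an adjusted p under 0.05. *Adamtsl2* is at 8.04 in *mdx* and 6.24 in WT, and the fitted value of *Mmp13* in WT is against 3 libraries at 0 counts and is not a measured fold.

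A list of 40 other genes of pericellular proteolysis (plasminogen activation, proprotein convertases, ADAM sheddases, further inhibitors, ADAMTS substrates and other matrix proteases) was read alongside. In AMuSCs 12 were higher and 2 lower in *mdx* of 34 tested (41.2% called, against 23.7% of all genes). *Fbn1*, which encodes the fibrillin-1 of microfibrils, was higher by 1.53 ± 0.12 (edgeR adjusted p = 0.000866), *Plat*, the tissue plasminogen activator, by 2.60 ± 0.24 (0.00105), *Bmp1*, the procollagen C-proteinase, by 1.67 ± 0.18 (0.0017) and *Thsd4*, an ADAMTSL family protein also called ADAMTSL6, by 1.86 ± 0.22 (0.00227). *Bmp1* and *Adamts2*, the enzymes that trim opposite ends of procollagen, were thus both higher in *mdx* AMuSCs. In FiMuSCs 10 were higher and 3 lower of 35 (37.1%, against 9.67% of all genes), with *Fap* at 1.34 ± 0.15 (edgeR adjusted p = 0.00523), *Plat* at 1.29 ± 0.16 (0.00635), *Adam12* at 1.95 ± 0.26 (0.00882) and the convertase *Pcsk5* at -1.31 ± 0.14 (0.00498). In myoblasts only the convertase *Pcsk6* was called (-1.45 ± 0.15, edgeR adjusted p = 0.0224), and in myotubes only *Fbn1* (0.98 ± 0.14, 0.0383).

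In response to injury, 5 of these genes were higher and 10 lower in *mdx* AMuSCs, and 11 were higher and 16 lower in WT AMuSCs, than in FiMuSCs, each of 35 tested. That is 42.9% called in *mdx*, where 27.3% of all genes were, and 77.1% in WT, where 64.6% were. *Adam19* rose by 2.04 ± 0.19 in *mdx* (edgeR adjusted p = 0.000528) and by 3.25 ± 0.19 in WT (4.44e-06), and *Pcsk5* fell by 3.21 in *mdx* (0.000392) and by 4.02 in WT (1.97e-06). *Spock3*, a testican, fell by 5.20 in *mdx* (edgeR adjusted p = 0.000284) and by 5.82 in WT (7.24e-05), *Thsd4* by 1.45 in *mdx* (0.00103) and by 3.53 in WT (1.51e-05), and *Papln* (papilin) by 3.89 in *mdx* (0.00697) and by 5.94 in WT (2.94e-06). The membrane-anchored MMP inhibitor *Reck* fell by 1.43 in *mdx* (edgeR adjusted p = 0.00306) and by 2.69 in WT (2.51e-06). The difference of responses was called above 0 for 7 and below 0 for 5 of 35 (34.3%, against 15.1% of all genes), including *Thsd4* (2.05 ± 0.27, edgeR adjusted p = 0.00111), *Bmp1* (1.48 ± 0.245, 0.00337), *Fbn1* (1.47 ± 0.24, 0.00304) and *Pcsk6* (-3.15 ± 0.55, 0.00437). With differentiation, 4 were higher and 15 lower in *mdx* myotubes of 31, and 5 higher and 18 lower in WT myotubes of 29. That is 61.3% called in *mdx*, where 52.2% of all genes were, and 79.3% in WT, where 69.5% were. The uPA receptor *Plaur* fell by 3.60 in *mdx* (edgeR adjusted p = 0.000158) and by 3.45 in WT (4.02e-07). *Bmp1* fell by 1.74 in *mdx* (edgeR adjusted p = 9.78e-05) and by 1.99 in WT (5.57e-06), the endocytic receptor *Lrp1* by 1.66 in *mdx* (0.000279) and by 2.04 in WT (2.92e-07), and *Pcsk6* by 2.95 in *mdx* (0.00263) and by 4.49 in WT (3.47e-07). Versican (*Vcan*), a substrate of *Adamts1*, *Adamts4* and *Adamts5*, fell by 1.88 in *mdx* (edgeR adjusted p = 0.000261) and by 1.63 in WT (0.00119). The single call in the difference of differentiation responses was *Fbn1* (1.29 ± 0.18, edgeR adjusted p = 0.0445).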

How the data were processed

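Poly(A) RNA was sequenced from 24 libraries with a directional kit. The deposited files hold, per transcript, estimated counts (expected counts) and TPM that the authors made with Salmon. Version 0.13.1 and the build GRCm38 are given in the submitters' notes on processing, which also list DESeq2. The strand setting and any bias options are not given in the sources used here. Transcripts were summed per Ensembl gene ID, members were found by gene symbol, and estimated counts were rounded to whole numbers. Totals of 37280196 to 64429222 reads limit members with few counts, and intervals on counts cover counting error only.

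Groups of 3 libraries were compared with edgeR 4.0.16 in R 4.3.3 (filterByExpr, TMM scaling, robust quasi-likelihood test, only the groups compared, an interaction term for differences of responses), with Benjamini-Hochberg adjustment over all genes tested and a threshold of 0.05. Log2 fold changes are those of the edgeR fit at its default prior count, and SE is the fold change over the root of F. A prior count of 2 was used only for the log2 CPM behind the correlations of replicate numbers. CPM is on the TMM scale of all 24 libraries. The fit was tested on simulated data. Alternatives were DESeq2 1.42.0, RLE scaling, no filter (a minimum of 1 count), a length offset, all 24 libraries in 1 fit, a replicate block and each library left out. Alternatives added after seeing the data were reads of protein-coding transcripts only and leaving out replicate 1 of *mdx* FiMuSCs and *mdx* AMuSCs together.

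Members called in a genotype comparison or in a difference of responses were named, with up to 6 called members a direction by size for injury and differentiation, the 4 TIMPs, the 10 highest by mean TPM, and up to 4 genes by smallest p of a list of 40 other proteolysis genes. A gene that this rule named is not reported here. Macrophage, neutrophil, fibro-adipogenic, endothelial, mural, Schwann, myofibre and myogenic marker lists were summed. The members and lists were chosen with earlier results of these data known. Promoters came from RefSeq (GRCm38.p6), and gene coordinates from GENCODE on GRCm38.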

Additional observations from a re-analysis of the deposited data

Results flagged for a closer look

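For 17 members the response to injury (AMuSCs against FiMuSCs) differed between genotypes by the test of the difference itself, *mdx* minus WT on the log2 scale (edgeR, adjusted over all genes). The difference was positive for *Mmp8* at 7.12 (adjusted p = 0.00898), *Mmp2* at 3.63 (0.000812), *Adamts17* at 3.59 (0.00337), *Adamts8* at 3.43 (0.000533), *Mmp9* at 2.70 (0.0155), *Adamts5* at 2.26 (0.000989), *Adamts15* at 2.00 (0.000585), *Timp3* at 1.82 (0.0127) and *Mmp14* at 1.63 (0.00313). It was also positive for *Adamtsl4* at 1.61 (adjusted p = 0.00554), *Adamts10* at 1.52 (0.0293), *Adamtsl1* at 1.51 (0.0171), *Adamts12* at 1.20 (0.0258), *Adamts6* at 1.09 (0.029) and *Adamts1* at 1.07 (0.016). It was negative for *Adamts3* at -1.54 (adjusted p = 0.0374) and *Adamts4* at -2.06 (0.0495).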

How the results depend on the processing

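Of the 144 calls of single members, DESeq2 and RLE scaling kept all 144, while 30 were lost in the fit of all 24 libraries, 25 with the length offset, 16 with the replicate block and 15 without the filter. On reads of protein-coding transcripts 7 were lost, 7 could not be tested and 1 reversed, that of *Adamts10* between AMuSCs and FiMuSCs in *mdx* at 0.88. Counts of members called changed as follows. FiMuSCs gave 6 (6 higher and 0 lower) in the fit of all 24 libraries. Myoblasts gave 5 with DESeq2 and 5 in the fit of all 24 libraries, and myotubes 4 with DESeq2 and 3 without the filter. The difference of injury responses gave 10 with the length offset and 11 in the fit of all 24 libraries, and the difference of differentiation responses 2 with DESeq2 and 1 without the filter. DESeq2 gave 18 in FiMuSCs. The cause of these changes was not tested. With 1 library left out, the counts ranged from 4 to 13 in FiMuSCs, 15 to 25 in AMuSCs, 0 to 0 in myoblasts, 0 to 2 in myotubes, 12 to 19 for injury in *mdx*, 25 to 29 for injury in WT, 11 to 20 for their difference, 13 to 21 for differentiation in *mdx*, 24 to 28 in WT and 0 to 0 for that difference. Over all genes in AMuSCs, 2852 were higher and 1730 lower, against 3291 and 3089 in the fit of all 24 libraries and 2512 and 2037 with RLE scaling, with 0 members lower in each. Correlations of same-numbered deviations ran from -0.119 to 0.285, with no consistent pairing by replicate number in the sorted cells. Between *mdx* myotubes and myoblasts, replicate 1 had 0.285, against at most -0.143 with other numbers, whereas replicates 2 and 3 correlated more with another number. Between WT myotubes and myoblasts, the same-numbered value was the higher for each replicate, though small (0.0286 to 0.0604). With the replicate block 8 members (4 higher and 4 lower) were called in FiMuSCs, 25 in AMuSCs and 16 for the difference of injury responses. For differentiation the block gave 18 in *mdx* and 27 in WT, against 16 and 25 in the main fit. Shallow members such as *Mmp3*, *Adamts16* and *Mmp8* in WT AMuSCs rest on few counts.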

Other observations

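Some summed levels stood outside the comparisons. The *Adamtsl* genes summed to 102 ± 16.9 TPM in *mdx* myotubes and 70.3 ± 5.61 TPM in WT myotubes, and to 9.75 ± 4.60 TPM in *mdx* myoblasts and 7.43 ± 0.669 TPM in WT myoblasts (SD, n = 3 each). Over protein-coding transcripts alone the myotube sums were 20.7 ± 8.12 TPM in *mdx* and 13.7 ± 1.01 TPM in WT. *Timp1* held 53.4% of the summed TIMP TPM in *mdx* myoblasts and 58.8% in WT myoblasts, against 15.7% in *mdx* FiMuSCs and 2.27% in WT FiMuSCs. *Mmp15* held 23.6% of the summed MMP TPM in *mdx* myotubes and 33.5% in WT myotubes. These values were given no test.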
